A study of Mus musculus with 12 samples.

Results

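Peaks of dimethylated lysine 36 of histone H3 (H3K36me2) that lie at the boundaries of protein-coding genes are described here, in somatosensory cortex of control and Nsd1Nex-cKO mice. A deposited peak was taken as a boundary peak where its midpoint lay within 5000 bp of the start or end of any protein-coding gene of RefSeq GRCm38.p6, the assembly of mm10, inside or outside the gene. The rule used position alone and no measured value. It took 47 of the 231 peaks in the control (Ctrl) list, or 20.3% (Wilson 95% interval 15.7 to 26.0), and 566 of the 3491 peaks in the cKO list, or 16.2% (15 to 17.5).

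The series profiled H3K36me2 by chromatin immunoprecipitation and sequencing in 12 libraries from mice of 2.5 months, in 4 groups of 3: immunoprecipitated chromatin and input, for each genotype. Of the 3 control libraries in each group the labels gave 2 as Nsd1fl/+ and 1 as Nsd1fl/fl, and the cKO libraries were Nsd1Nex-cKO, so every control carried at least 1 floxed allele. Nex drives Cre recombinase in postmitotic excitatory neurons of the forebrain, so inhibitory neurons, glia and vascular cells in the dissected cortex keep the gene. All libraries of a genotype shared 1 deposited peak list, which means that no value had a replicate and no replicate spread could be computed. Intervals below cover counting error only, peaks in a list are not replicates, and no p-value was computed.

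H3K36me2 is deposited by the methyltransferases NSD1, NSD2, NSD3 and ASH1L and is known to spread over intergenic domains and parts of gene bodies. It is typically low directly at active promoters, where H3K4 trimethylation is found, and gives way to the trimethylated form, deposited by SETD2, along transcribed gene bodies. A gene's start and its end are therefore positions where levels of this mark can change over short distances, and NSD1 loss is known to lower H3K36me2 mainly between genes.

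Sequence was available for the windows from 250 bases before to 50 bases after annotated starts of genes, some of which have several, and 10 of these promoter windows were touched by a peak, 2 by a Ctrl peak and 8 by a cKO peak. The sequences of 7 are printed because they show what lay under peaks that touched such a window, with or without covering the start itself. They are from RefSeq, build GRCm38.p6, on the strand of the gene and 5′ to 3′, and capitals mark the bases under the peak. Foxn1 (chr11:78386559-78386858, minus strand) and A530032D15Rik (chr1:85109804-85110103, minus strand) were under Ctrl peaks. The cKO peaks lay over 4933428G20Rik (chr11:97500291-97500590, minus strand), Olfm4 (chr14:80000052-80000351, plus strand), Gm21083 (chr5:15577043-15577342, plus strand), Gm7972 (chr9:75468323-75468622, plus strand) and Prss42 (chr9:110797935-110798234, plus strand).
Foxn1: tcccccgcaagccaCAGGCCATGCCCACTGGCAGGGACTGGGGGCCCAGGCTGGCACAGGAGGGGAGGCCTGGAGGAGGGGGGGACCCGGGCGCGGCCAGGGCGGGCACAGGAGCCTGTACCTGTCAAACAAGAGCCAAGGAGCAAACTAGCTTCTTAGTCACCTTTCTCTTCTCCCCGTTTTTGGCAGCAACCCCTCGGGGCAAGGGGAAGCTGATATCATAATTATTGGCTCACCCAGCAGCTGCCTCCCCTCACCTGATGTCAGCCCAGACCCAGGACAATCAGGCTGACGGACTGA
A530032D15Rik: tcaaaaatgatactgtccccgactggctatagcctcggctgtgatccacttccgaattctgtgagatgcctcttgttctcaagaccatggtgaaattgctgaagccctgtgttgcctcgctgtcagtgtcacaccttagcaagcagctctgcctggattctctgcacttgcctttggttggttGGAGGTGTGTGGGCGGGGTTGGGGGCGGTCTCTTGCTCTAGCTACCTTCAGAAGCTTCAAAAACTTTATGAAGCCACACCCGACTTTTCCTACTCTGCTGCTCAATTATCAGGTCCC
4933428G20Rik: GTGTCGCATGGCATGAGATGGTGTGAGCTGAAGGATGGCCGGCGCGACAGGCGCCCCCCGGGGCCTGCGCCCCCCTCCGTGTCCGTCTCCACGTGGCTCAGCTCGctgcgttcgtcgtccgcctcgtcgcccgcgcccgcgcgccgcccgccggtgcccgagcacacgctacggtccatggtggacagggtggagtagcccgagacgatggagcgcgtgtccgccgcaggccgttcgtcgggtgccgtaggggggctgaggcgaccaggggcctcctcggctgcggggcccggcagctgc
Olfm4: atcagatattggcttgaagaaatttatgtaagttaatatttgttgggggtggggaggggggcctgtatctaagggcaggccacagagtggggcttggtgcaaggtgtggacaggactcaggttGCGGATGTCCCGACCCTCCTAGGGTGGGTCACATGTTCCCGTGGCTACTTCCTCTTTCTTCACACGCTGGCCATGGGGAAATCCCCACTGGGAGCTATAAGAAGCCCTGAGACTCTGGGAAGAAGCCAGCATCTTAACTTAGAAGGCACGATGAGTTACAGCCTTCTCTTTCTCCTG
Gm21083: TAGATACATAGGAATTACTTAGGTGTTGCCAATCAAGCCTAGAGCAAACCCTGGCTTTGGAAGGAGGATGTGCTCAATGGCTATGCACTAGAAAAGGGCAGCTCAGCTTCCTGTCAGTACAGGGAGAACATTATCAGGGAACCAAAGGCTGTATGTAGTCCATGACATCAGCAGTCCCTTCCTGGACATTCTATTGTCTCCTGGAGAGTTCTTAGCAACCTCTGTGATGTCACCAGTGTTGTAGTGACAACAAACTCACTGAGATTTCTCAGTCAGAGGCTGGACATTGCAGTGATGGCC
Gm7972: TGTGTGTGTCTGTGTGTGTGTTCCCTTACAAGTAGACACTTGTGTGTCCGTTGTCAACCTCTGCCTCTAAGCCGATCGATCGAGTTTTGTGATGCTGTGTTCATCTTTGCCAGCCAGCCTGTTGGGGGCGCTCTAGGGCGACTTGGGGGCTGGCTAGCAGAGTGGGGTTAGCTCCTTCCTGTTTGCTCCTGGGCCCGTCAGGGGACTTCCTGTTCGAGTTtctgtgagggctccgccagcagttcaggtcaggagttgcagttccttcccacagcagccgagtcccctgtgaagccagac
Prss42: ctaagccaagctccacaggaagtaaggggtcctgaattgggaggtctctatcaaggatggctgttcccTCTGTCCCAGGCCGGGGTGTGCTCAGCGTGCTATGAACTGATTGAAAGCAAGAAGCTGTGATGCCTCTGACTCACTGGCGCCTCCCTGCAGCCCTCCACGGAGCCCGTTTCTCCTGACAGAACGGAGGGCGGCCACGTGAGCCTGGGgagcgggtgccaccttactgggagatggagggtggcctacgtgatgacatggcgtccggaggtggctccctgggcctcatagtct

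The 10 promoter windows touched by a peak held a median of 7.5 CpG dinucleotides, counted over the whole 300 bases. The median of all 21262 promoter windows, of 17491 genes, was 13 (quartiles 4 and 24). The count was at or below that median in 9 of the 10. The exception was 4933428G20Rik, with 42 CpG, 11 of them under the peak. The overlap ran from 7 bases at 1700012B09Rik to all 300 at Gm21083. Gm21083, which lay whole under a cKO peak of 968 bp, held 0 CpG. In Foxn1, which encodes a transcription factor of thymic epithelium and skin, the Ctrl peak covered 286 of 300 bases, with 7 of the 8 CpG. In Olfm4, a secreted olfactomedin, and Prss42, a serine protease of the testis, the cKO peaks covered 177 and 147 bases. Their median GC content was 56.7%, against 56.3% for all promoters. Both strands were searched for 3 motifs. GGGCGG was present in 5 of 10 promoters (46.2% of all promoters), CCAAT in 6 of 10 (38.2%) and TATAAA in 0 of 10 (12.6%). None of the 10 peaks had a q-value, the caller's adjusted p, under 0.05. Among all peaks 9.96% in the Ctrl list and 18.4% in the cKO list did, and 10 peaks are too few to show a difference. The highest −log10 q among the 10 was 0.699, at A530032D15Rik.

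Few boundary peaks were centred on a promoter in either list. The midpoint lay in a promoter window for 1 of 47 Ctrl boundary peaks (2.13%, interval 0.377 to 11.1) and for 5 of 566 cKO boundary peaks (0.883%, interval 0.378 to 2.05). Promoter windows made up 1.64% of the bases within 5000 bp of a boundary, which lies inside both intervals.

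The windows within 5000 bp of a boundary summed to 327 Mb, 12.1% of a span of 2703 Mb, which ran on each chromosome from its first to its last base under a gene or peak. Both lists held more peaks per base there than in the rest of the span taken as a whole. The Ctrl list had 0.144 peaks per Mb of window and 0.0774 per Mb in the rest, a ratio of 1.86 (exact 95% interval 1.32 to 2.57). Without peaks that lie close together, as defined below, 14 boundary peaks were 12.1% of the remaining Ctrl list (7.33 to 19.2). That share was the same as the windows' share of the span, though its interval also includes higher and lower shares. The cKO list had 1.73 peaks per Mb of window and 1.23 per Mb in the rest, a ratio of 1.41 (1.28 to 1.54), and without close peaks the boundary share was 15.8%. The higher rate was not particular to 5000 bp. Windows of 10000 bp, 20.4% of the span, held 34.6% of Ctrl and 28.8% of cKO peaks. Windows of 1000 bp, 2.93% of the span, held 6.06% of Ctrl and 2.81% of cKO peaks. The span includes assembly gaps, which hold no peak and mostly lie outside genes, and their part in these ratios and shares was not tested.

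The rule limited distances to 5 kb, and 24.2% of window bases lay within 1 kb of a boundary. So did 29.8% of Ctrl boundary peaks (18.7 to 44.0) and 17.3% of cKO boundary peaks (14.4 to 20.6). The median distance was 1.99 kb (1.5 to 2.72) in the Ctrl list and 2.61 kb (2.33 to 2.79) in the cKO list. In the cKO list 98 peaks lay within 1 kb, 120 between 1 and 2 kb, 115 between 2 and 3 kb, 130 between 3 and 4 kb and 103 between 4 and 5 kb. Per Mb of window this was lowest nearest the boundary, at 1.24 within 1 kb (1.01 to 1.51), and highest between 3 and 4 kb, at 2.20. The rate within 1 kb was 0.656 of that between 1 and 5 kb (0.522 to 0.817). The Ctrl list held 14, 10, 8, 8 and 7 peaks in the same 5 distances, and its ratio of 1.33 had an interval, 0.657 to 2.55, that included both a lower and a higher rate.

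In the cKO list the thinning near a boundary was seen at gene starts. Strand was known for 17491 of 21883 protein-coding genes, and the nearest boundary was a start for 222 cKO peaks, an end for 226 and of unknown strand for 116, with 2 peaks equally near both kinds. Within 1 kb of a start there were 26 cKO peaks, or 0.83 per Mb (0.54 to 1.21), against 196 between 1 and 5 kb, or 1.95 per Mb (1.69 to 2.24). The ratio was 0.424 (0.270 to 0.641). Within 1 kb of a gene end there were 48 cKO peaks, or 1.52 per Mb (1.12 to 2.01), against 178 farther out, or 1.84 per Mb, and the ratio of 0.825 had an interval of 0.587 to 1.14. Within 1 kb, the rate at starts was 0.546 of that at ends (0.325 to 0.897). The low rate at starts held on both sides: 14 cKO peaks lay within 1 kb before the start and 12 within 1 kb into the gene.

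**Figure D1:**
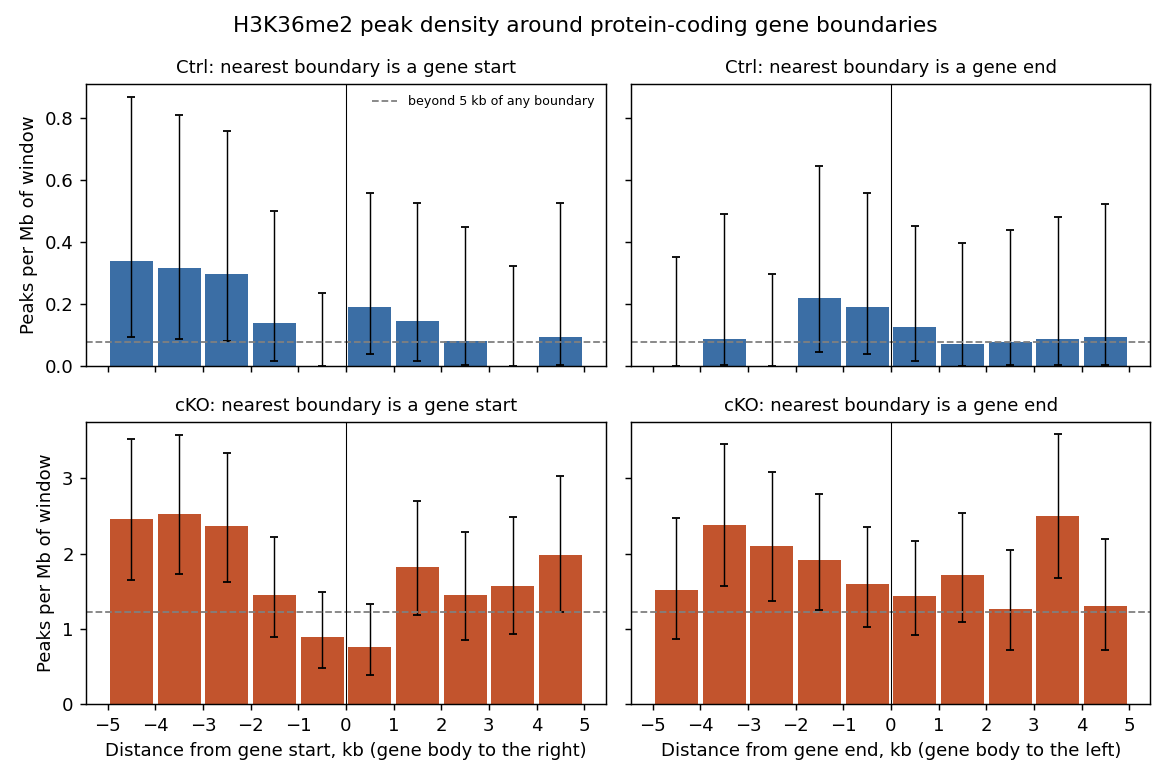
Peaks per Mb of window (vertical axis) against distance from a gene start or a gene end in kb (horizontal axis), for each list, over genes of known strand, with bars as exact Poisson 95% intervals of counting error. The cKO bins beside gene starts are the lowest of that panel, at 0.891 per Mb before the start and 0.763 into the gene, and the Ctrl bins hold too few peaks to show a shape.

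Genes were divided at the median of 13 CpG in their promoter window, since CpG-rich promoters are typically those of broadly expressed genes. At the 8655 genes of higher CpG, 8 cKO peaks lay within 1 kb of the start, or 0.521 per Mb, and 104 between 1 and 5 kb, or 2.03 per Mb, a ratio of 0.256 (0.108 to 0.523). At the 8836 genes of lower CpG the counts were 18 and 92, or 1.12 and 1.86 per Mb, a ratio of 0.602 (0.342 to 1.00). The difference between these ratios was not tested, and their intervals overlapped. The Ctrl list had 3 and 17 peaks at genes of lower CpG and 0 and 1 at genes of higher CpG.

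The Ctrl peaks were too few to place by boundary. The nearest boundary was a start for 21, an end for 13 and of unknown strand for 13. Among peaks of known strand, starts took 61.8% in the Ctrl list (45.0 to 76.1) and 49.6% in the cKO list (45.0 to 54.2), and 50.7% of window bases lay nearest a start. Within 1 kb there were 3 Ctrl peaks at starts and 5 at ends, and between 1 and 5 kb 18 and 8. The side of the boundary also differed little from the windows: 57.4% of Ctrl boundary peaks (43.3 to 70.5) and 53.0% of cKO boundary peaks (48.9 to 57.1) had their midpoint inside a coding gene, as did 54.1% of window bases. Boundaries of at least 2 genes were in reach of 8 Ctrl peaks (17.0%) and 110 cKO peaks (19.4%), against 17.7% of window bases.

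Fold enrichment, the authors' value for each peak, is the caller's ratio of signal to its local background, each list against its own. In the Ctrl list boundary peaks had a median fold of 2.02 (1.83 to 2.19; range 1.46 to 3.76) and the 184 other peaks 2.25 (2.12 to 2.39). Without close neighbours the order turned, with 2.82 (1.98 to 3.33) for 14 boundary peaks and 2.65 (2.46 to 2.85) for the others, and these intervals overlapped. In the cKO list the medians were 2.82 (2.81 to 2.86; range 1.32 to 6.0) and 2.83 (2.81 to 2.84) for the 2925 other peaks. Boundary peaks had a median width of 311 bp in the Ctrl list and 259 bp in the cKO list, against 281 and 247 bp for other peaks.

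A q under 0.05 was reached by 146 of 566 cKO boundary peaks, 25.8% (22.4 to 29.6), against 18.4% of all cKO peaks and 16.9% (15.6 to 18.3) of those away from boundaries. At the stricter limit of 2 or more in −log10 q there were 81 boundary peaks, 14.3% (11.7 to 17.4), against 10.7% of all cKO peaks and 10.0% of those away from boundaries. The higher share of low q-values came with equal median folds and a median width 12 bp greater. Among cKO peaks without close neighbours, as defined below, it was 26.1% of 506 boundary peaks and 15.2% of 2697 others. In the Ctrl list 3 of 47 boundary peaks had a q under 0.05, 6.38% (2.20 to 17.2), against 9.96% of all Ctrl peaks, and 1 met the stricter limit, against 8.66% of all. A −log10 q of 0, meaning an adjusted p of 1, was listed for 20 Ctrl boundary peaks (42.6%), against 33.3% of all Ctrl peaks, and for 66 cKO boundary peaks (11.7%), against 12.7% of all cKO peaks. Read depth, efficiency of the immunoprecipitation and input depth can move these values and cannot be told apart from genotype.

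**Figure D2:**
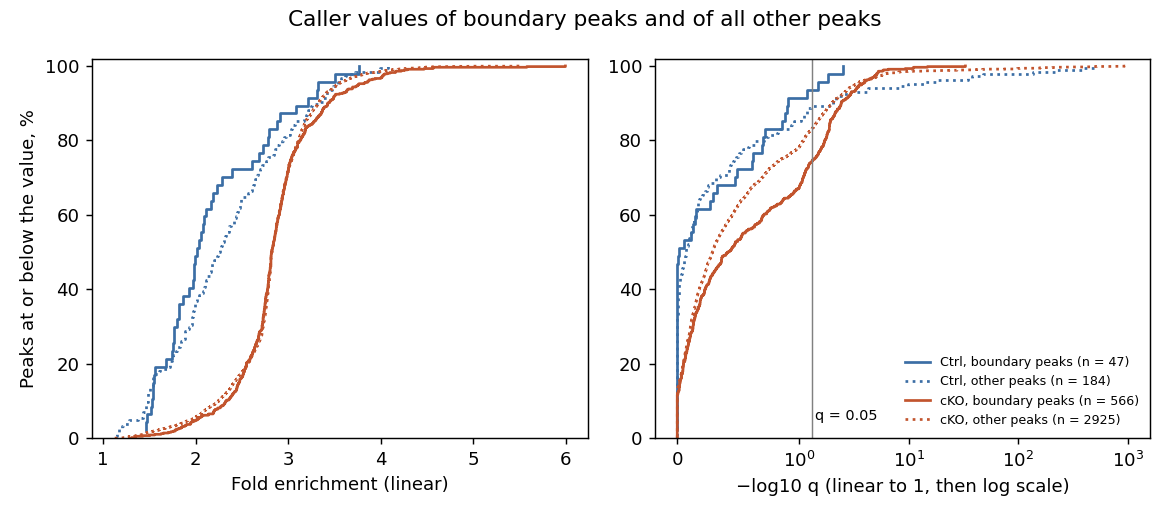
Share of peaks at or below each value (vertical axis, percent) of fold enrichment and of −log10 q (horizontal axes), for boundary peaks and all other peaks of each list. The fold curves of the cKO list nearly coincide, at medians of 2.82 and 2.83, and its −log10 q curves part, with 25.8% and 16.9% of peaks past q = 0.05.

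Among cKO boundary peaks the highest fold lay 4.81 kb past the end of Actg1, the cytoplasmic gamma-actin (chr11:120340804-120340950), at 6.0 with a −log10 q of 9.32. The next lay 2.62 kb past the end of Ctsa, lysosomal cathepsin A, and also near Pltp, the phospholipid transfer protein (chr2:164843569-164843729), with a fold of 5.58 and a −log10 q of 6.50. Stk38, an NDR-family kinase, had a peak 3.42 kb inside its start with a fold of 4.57 (chr17:29004516-29004662) and another 0.889 kb before the start with a fold of 3.77, at −log10 q of 4.90 and 5.14. A peak 4.88 kb past the end of Crk, an SH2 and SH3 adaptor, had a fold of 4.57. Sgsm3, a modulator of small GTPases, had a peak of fold 4.47 at 4.49 kb inside its start. The others among the 10 highest, with folds from 4.16 to 4.29, were at 2310002L09Rik, Snx24, Psme3ip1 with Rspry1 and LOC115486880, Slc25a10, the mitochondrial dicarboxylate carrier, and Pira2. None of these 10 overlapped a Ctrl peak, and 2.81% of all cKO peaks did.

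Fold and q ranked the peaks differently. The highest −log10 q among cKO boundary peaks, 33.0, came from a peak of fold 1.76 3.98 kb inside the start of Cldn34d, a claudin-family gene (chrX:76598875-76599023). The next, 14.9, came from a peak of fold 1.35 3.32 kb before the start of Tmem125 (chr4:118547894-118548586). Both folds were below the cKO median of 2.82. Below them, the peak at Psme3ip1 reached 11.1 in −log10 q with a fold of 4.22. Psmg2, a proteasome assembly chaperone, reached 11.0 with a fold of 3.43, and Polr2f, an RNA polymerase subunit, 5.90 with a fold of 3.31. Acvr2b, an activin receptor, reached 5.32 with a fold of 3.91, 1.43 kb before its start.

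The 5 Ctrl boundary peaks of highest fold all had a q above 0.05, as did all but 3 of the 47 Ctrl boundary peaks. Of all Ctrl peaks 9.96% had a q under 0.05. Zfp386, a KRAB zinc finger gene, had a peak of fold 3.76 and −log10 q 0.267 at 3.40 kb before its start (chr12:116044218-116044413). Defa17, an alpha-defensin of intestinal Paneth cells, had one of 147 bp with a fold of 3.51 and a −log10 q of 0.154 (chr8:21655712-21655858). Ttc30a2 with Ttc30a1, genes of intraflagellar transport, Foxn1 and Sprr1a, a cornified-envelope protein of skin, followed with folds of 3.33, 3.32 and 3.22. The peak of lowest q, with 2.55 in −log10 q and a fold of 2.06, lay 3.63 kb before the start of the predicted gene Gm10354 (chr5:14982279-14982893).

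The rule cuts a continuous range of distances. In the Ctrl list the peaks just inside it were at Gm17019 (4575 bp, fold 2.02), Sfi1 (4536 bp) and A530032D15Rik (4531.5 bp), and the nearest outside was at Gm40469 (5030 bp, fold 2.75). In the cKO list Aldh3b3 (4964.5 bp, fold 2.83) and Vmn1r233 (4958 bp, fold 3.34) were just inside, and Pltp and Cass4 (5004.5 bp, folds 2.92 and 3.07) just outside.

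Close groups of peaks held most of the Ctrl boundary peaks. A peak was counted as having close neighbours where at least 3 other peaks of either list lay within 100 kb. This held for 33 of 47 Ctrl boundary peaks, 70.2% (56.0 to 81.3), against 44.6% (37.6 to 51.8) of other Ctrl peaks. It held for 60 of 566 cKO boundary peaks, 10.6% (8.33 to 13.4), against 7.79% (6.88 to 8.82) of other cKO peaks. The 33 Ctrl peaks had a median fold of 1.92.

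The largest group lay at Sfi1, which encodes a centrin-binding protein of the centrosome, on chromosome 11. Around its boundary of lower coordinate there were 8 Ctrl peaks with folds from 1.46 to 1.56 and 3 cKO peaks with folds from 1.35 to 1.5. They covered 3348 bp in the Ctrl list and 2620 bp in the cKO list. At its other boundary each list had 1 peak, of fold 1.68 in Ctrl and 1.89 in cKO, where the cKO −log10 q was 3.02 and the Ctrl 0.145. The widest cKO boundary peak, 1417 bp with a fold of 1.43, also lay at Sfi1. The group was not confined to the boundaries. Further peaks of like fold lay deeper inside the gene, beyond the limit of the rule, among them a Ctrl peak and a cKO peak each of fold 1.44.

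The other large groups lay on chromosomes 5 and 1. On chromosome 5, Gm9758, Speer4e, Gm10354 and Gm17019 held 7 Ctrl peaks with a median fold of 2.02 and 4 cKO peaks with a median fold of 1.96. Gm21149, Gm21190, Gm21083, Speer4d and Speer4c held 4 Ctrl peaks (median 2.10) and 3 cKO peaks (median 2.01). Speer genes are a rodent family expressed in testis. On chromosome 1, 4 Ctrl peaks lay at Sp110 and Sp140, of the Sp100 family of nuclear-body proteins, with a median fold of 2.03. At these genes and Gm2427 lay 4 cKO peaks, with a median fold of 1.83. Near them, A530032D15Rik, Gm38510, Gm7609 and C130026I21Rik held 3 Ctrl peaks (median 2.23) and 8 cKO peaks (median 2.0). In all, 19 of 47 Ctrl and 12 of 566 cKO boundary peaks were within 5 kb of a Speer, Sp100-family or Sfi1 gene. This list was chosen with its peaks already seen. How reads that match several near-identical copies were treated is not given in the sources used here, and its part in these groups was not tested.

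**Figure D3:**
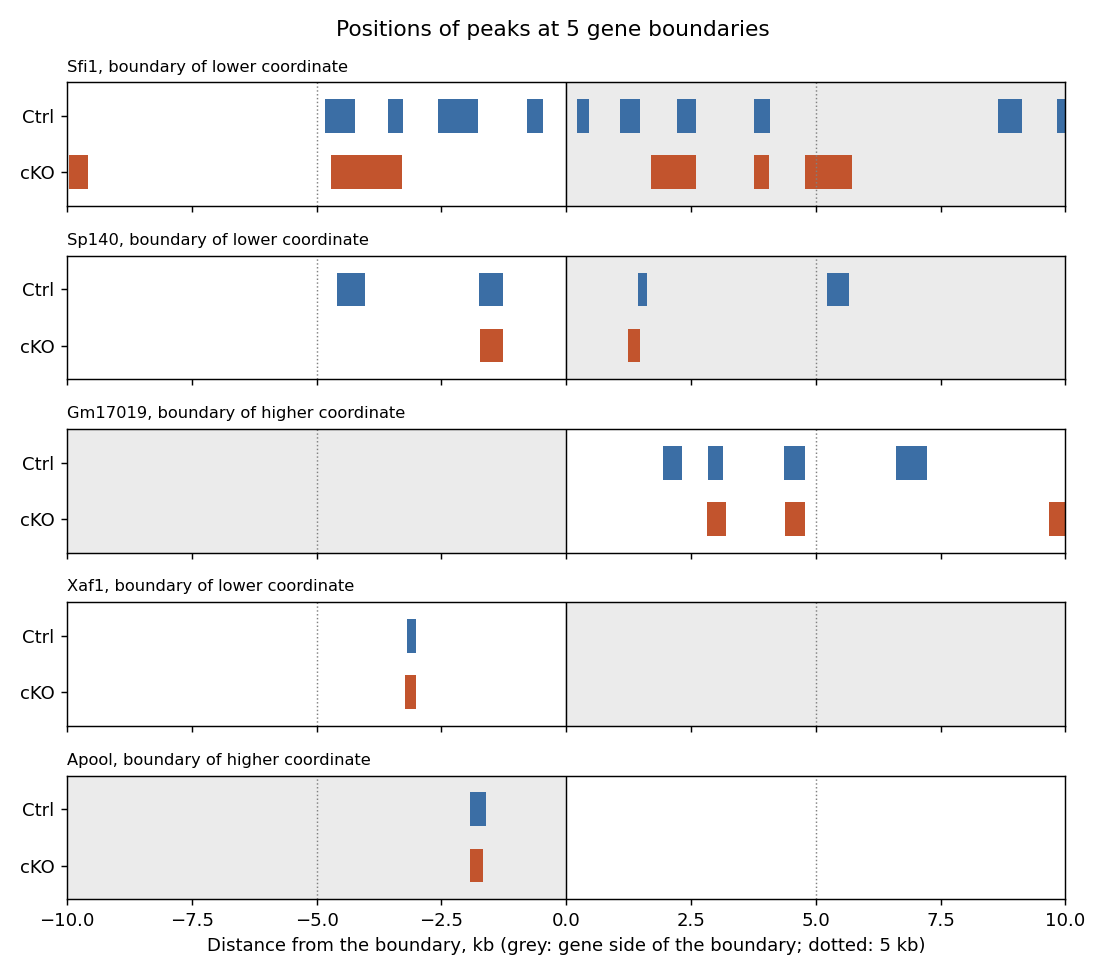
Positions of Ctrl and cKO peaks around 5 gene boundaries, as distance from the boundary in kb (horizontal axis), with bars for peaks, grey for the gene side and dotted lines at 5 kb. At Sfi1, 8 Ctrl peaks and 3 cKO peaks have their midpoint between the dotted lines, and further peaks of both lists lie outside them.

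Boundary peaks were unevenly spread over chromosomes. The Ctrl list had 15 on chromosome 5, 12 on chromosome 11, 8 on chromosome 1 and 4 on chromosome 8, which left 8 for all the rest. The cKO density was highest on chromosome 4, with 57 peaks or 2.87 per Mb of window (2.17 to 3.71), and chromosomes 11, 7 and 5 followed with 2.44, 2.34 and 2.26. The lowest autosome was chromosome 14, with 13 peaks or 0.98 per Mb. On the X chromosome 12 cKO peaks gave 0.79 per Mb, 0.437 of the autosomal rate (0.224 to 0.770). The sex of the mice is not given in the sources used here, so the X chromosome's copy number cannot be told apart from a lower level. The Y chromosome had 0 in both lists.

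**Figure D4:**
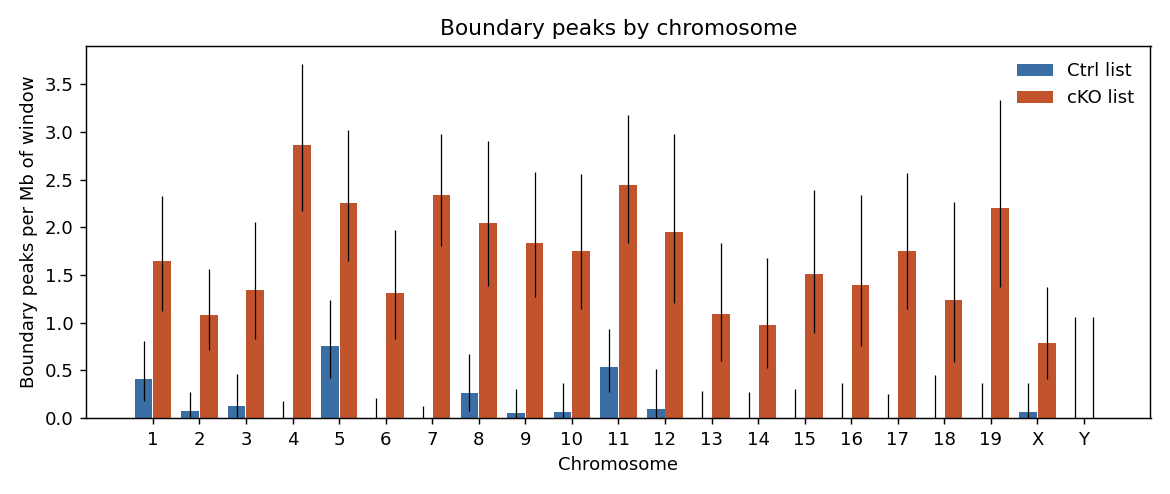
Boundary peaks per Mb of window (vertical axis) on each chromosome (horizontal axis) for both lists, with exact Poisson 95% intervals of counting error. The cKO bars range from 0.79 on X to 2.87 on chromosome 4, leaving out Y with 0, and Ctrl peaks concentrate on chromosomes 5, 11 and 1.

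The lists overlapped at 16 places. Of the Ctrl boundary peaks, 16 of 47 (34.0%, 22.2 to 48.3) overlapped a cKO peak by at least 1 bp, against 42.4% of all Ctrl peaks. Of the cKO boundary peaks, 15 of 566 (2.65%, 1.61 to 4.33) overlapped a Ctrl peak, against 2.81% of all cKO peaks. Both shares were near those of their lists. Every overlapping partner was itself a boundary peak, which the rule made nearly certain because overlapping peaks have midpoints close together. The shared length summed to 5602 bp, and 12 of the 16 pairs had close neighbours.

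Within the 16 pairs neither list had the higher fold more often. The cKO fold was higher in 8 and the Ctrl fold in 8, the medians were 1.82 in Ctrl and 1.83 in cKO, and the difference ran from -0.283 to 0.532. The 16 pairs held 15 cKO peaks. A cKO peak of fold 1.43 at Sfi1 was counted with each of the Ctrl peaks it overlapped, of folds 1.51 and 1.53. The −log10 q was higher in cKO in 12 of 16. The widest gap was before the start of Xaf1, an interferon-induced antagonist of XIAP (chr11:72298280-72298447), with a fold of 1.98 in Ctrl and 2.52 in cKO and a −log10 q of 0 and 4.16. Apool, a mitochondrial cristae protein, had folds of 1.47 and 1.65 and −log10 q of 0.489 and 3.50. The highest folds were at Kif23 with Rplp1, a kinesin of cytokinesis and a ribosomal stalk protein, at 2.73 and 2.95, and at Pdia3 with Ell3, an endoplasmic reticulum isomerase and an elongation factor, at 2.80 and 2.65. At Pisd, the mitochondrial phosphatidylserine decarboxylase, the folds were 2.04 and 1.84. The remaining pairs lay at Sfi1, Gm51877, Sp140, Gm17019, Gm4981 and Gm51572 with Gm51571, with folds from 1.35 to 2.09.

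**Figure D5:**
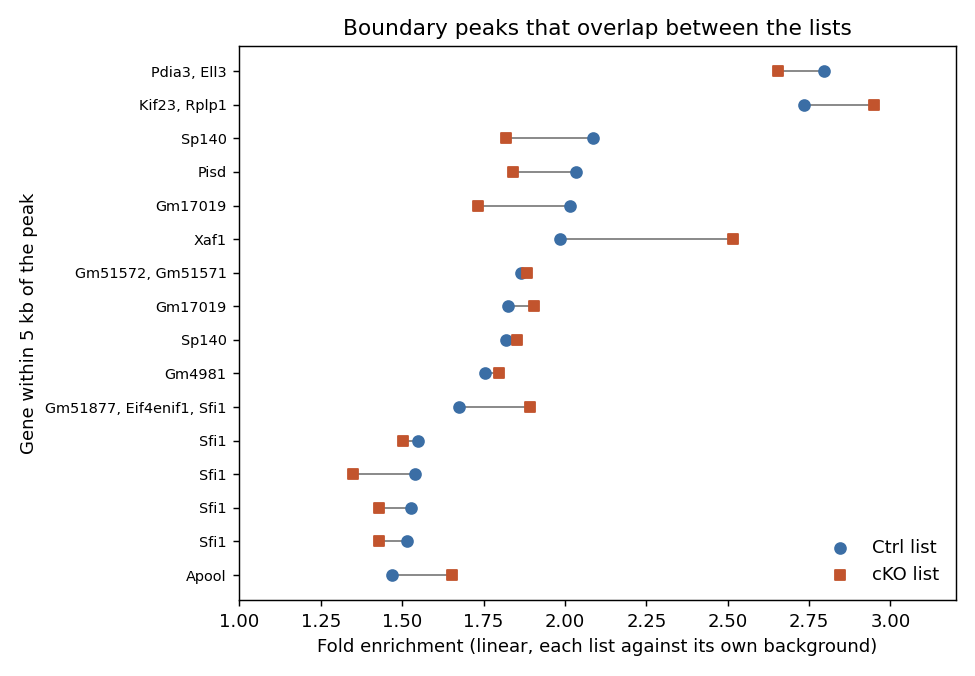
Fold enrichment (horizontal axis, linear, each list against its own background) of the 16 overlapping pairs of boundary peaks, labelled by the genes within 5 kb (vertical axis), with 1 point per list. The points cross from pair to pair, with cKO higher in 8 and Ctrl higher in 8. The Sfi1 cKO peak of fold 1.43 is drawn in each of its pairs.

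Counted by gene, 39 of 21883 protein-coding genes (0.178%) had a Ctrl boundary peak and 661 (3.02%) a cKO boundary peak, and 23 had both. At the stricter q limit this left 1 gene (0.00457%) and 98 genes (0.448%). The median length of genes with a Ctrl peak was 6.66 kb, and its interval, 4.07 to 18.8 kb, included the 17.2 kb of genes without one. Genes with a cKO peak spanned 17.0 kb (14.8 to 19.5) at the median. Predicted or unnamed genes (symbols of the Gm, LOC or Rik kind) were 12 of the 39 (30.8%, 18.6 to 46.4) and 67 of the 661 (10.1%, 8.06 to 12.7), against 8.62% of all coding genes. At 5 of the 23 genes with both, the lists had their peaks at opposite ends: Foxn1, Gm10354, Gm21083, Pramel42 and Sp110. Among their peaks only a Ctrl peak at Gm10354 and the cKO peak at Foxn1 had a q under 0.05. Gm10354 and Gm21083 span 4812 and 4800 bp, and peaks were assigned to the nearer end, so the ends are close together there. These positions do not show a change of end between genotypes. Foxn1 had its Ctrl peak over the start, in the sequence printed above, and a cKO peak 3.33 kb past its end with a fold of 4.02 and 4.74 in −log10 q. Pramel42, of the PRAME-like family, had folds of 2.88 in Ctrl and 2.92 in cKO.

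Some genes had peaks at both ends. This was so for 13 of the 661 genes with a cKO peak and 2 of the 39 with a Ctrl peak. At least 2 boundary peaks lay at 38 genes in the cKO list and 8 in the Ctrl list. Pthlh, parathyroid hormone-like hormone, had cKO folds of 3.63 before its start and 2.85 past its end. Dusp16, a phosphatase of MAP kinases, had 2.94 before its start and 3.29 inside its end. Rnf216, a ubiquitin ligase, had 3.02 and 2.81, and Map3k14, the NF-κB-inducing kinase, 2.81 and 2.4. None of these 8 peaks met the stricter q limit, but peaks at 4 others of the 13 did: at Oxld1 (5.28 in −log10 q), at Duxf3 and Gm4981 (3.71, 1 peak between them) and at Sfi1 (3.02). Oxld1, Duxf3 and Gm4981 span 1470, 3585 and 1813 bp. Peaks were assigned to the nearer end, so in genes this short 2 nearby peaks can count as both ends.

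The 13 lists compiled by name covered 288 genes: synaptic proteins, axon guidance, upper-layer, deep-layer and area identity, interneurons, oligodendrocytes, astrocytes, microglia and vessels, H3K36, DNA methylation and Polycomb enzymes, Polycomb targets, immediate early genes and housekeeping genes. The Ctrl list had a boundary peak at 0 of 288, which allows up to 1.04% at 3 counts, against 0.178% of all coding genes. The cKO list had 4 of 288 (1.39%, 0.541 to 3.52), against 3.02% of all. These were Actg1, described above; Cspg4, a proteoglycan of oligodendrocyte precursors and pericytes (fold 2.45, 3.03 kb past the end); Mog, a myelin glycoprotein (fold 2.39, 3.61 kb inside the start); and Dnmt1, the maintenance DNA methyltransferase (fold 2.78, 2.27 kb before the start, also near S1pr2). The labelled tissue could not be checked by these markers, since the peaks do not measure expression.

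The families taken by symbol differed in their shares, against the same 3.02% in cKO and 0.178% in Ctrl. Olfactory and vomeronasal receptor genes had a cKO boundary peak at 14 of 1463 (0.957%, 0.571 to 1.6), among them Vmn1r124 (fold 3.50), Vmn1r233 (3.34), Vmn2r115 (3.19) and Olfr1322 (3.10, −log10 q 5.13), and a Ctrl peak at 0. Vmn1r124, Vmn1r233 and Olfr1322 span 924, 960 and 933 bp, and Vmn2r115 16152 bp. The windows at the ends of a short gene overlap, which leaves fewer bases in reach. The part of gene length in these shares was not tested. Zinc finger genes of the Zfp series had a cKO peak at 15 of 397 (3.78%), led by Zfp114 (4.10) and Zfp987 (3.83), and a Ctrl peak at 1, Zfp386. Ribosomal protein genes had 4 of 100 in cKO, among them Rplp1 (2.95), Rps19 (2.78) and Rps9 (2.68), and 2 in Ctrl, Rplp1 and Rpl37rt. Histone genes (80) and protocadherins (57) had 0 in both lists. Of the Speer, Sp100-family and Sfi1 list, 7 of 18 genes had a Ctrl peak and 6 a cKO peak. That list was chosen with its peaks already seen, so its shares cannot be set against those of all coding genes. The targeted gene, Nsd1 (chr13:55209782-55318325), had 0 boundary peaks in both lists, so these peaks do not check its deletion.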

How the data were processed

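The labels put the 12 libraries in 4 groups, genotype by antibody or input. Cutadapt, Bowtie2 2.4.4, MACS2 and mm10 were named without roles, per the submitters' processing notes; filters, duplicates, multi-mapping reads and the calling command are not given in the sources used here, and peak names in the control list read WT. The authors deposited 1 broad peak list per genotype, with a fold enrichment (a linear ratio), a −log10 p and a −log10 q for each peak. The score that the authors deposited beside them was not used. Depth was unknown.

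Positions were converted to 1-based coordinates. Distance was taken from the midpoint to the nearest start or end of 21883 protein-coding genes in the RefSeq table of GRCm38.p6. Start and end were told apart for the 17491 genes whose strand the RefSeq promoter table gave. Window bases were assigned to the nearest boundary, which gave the lengths behind each density. Shares carry Wilson intervals, medians order-statistic intervals, densities exact Poisson intervals and ratios exact conditional intervals, all at 95%. The procedures were tested on simulated lists. The text names peaks by fold, q and width, overlapping pairs, peaks on promoters, up to 4 genes per gene list, and genes with the most peaks. Members, lists and comparisons were chosen with earlier results of these data known. Genes with peaks at both ends, Stk38's weaker peak and the family groups were picked after their values were seen. Python 3.11.15 with pandas 2.3.3, numpy 2.4.6, scipy 1.17.1 and matplotlib 3.10.9 was used.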

Additional observations from a re-analysis of the deposited data

How the results depend on the processing

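Of 60 alternatives, 25 were counted as unchanged. For shares, medians and the ratio at starts, unchanged meant inside the interval of the main value. Numbers of peaks and of overlaps had no such interval and were judged by closeness to the main count. For Ctrl peaks, 50 and 44 were counted as unchanged from 47, and 28 as changed. For cKO peaks, 506 was counted as unchanged from 566. A window of 1000 bp took 14 Ctrl peaks (6.06%) and 98 cKO peaks (2.81%), 2000 bp took 24 (10.4%) and 218 (6.24%), and 10000 bp took 80 (34.6%) and 1006 (28.8%). These windows were 2.93%, 5.53% and 20.4% of the span. At 1000 bp the median fold was 2.54 in Ctrl and 2.86 in cKO, the share inside genes 78.6% and 57.1%, and the share nearest a start 37.5% and 35.1%. At a −log10 q of at least 2 there remained 1 Ctrl peak (5% of such peaks), outside genes (0%), nearest a start (100%) and overlapping 0 cKO peaks. The 81 cKO peaks at that limit (21.7%) had a median fold of 3.10, 48.1% lay inside genes and 0 overlapped a Ctrl peak at that limit. The ratio within 1 kb of starts was then 0.206 (0.0239 to 0.811), from 2 and 31 peaks. Alternatives chosen after seeing the data left out peaks with close neighbours or family genes, took genes with curated transcripts alone, or changed the ratio at starts, the 0.206 included. Without close neighbours 14 Ctrl peaks (12.1%) had a median fold of 2.82, and 4 of 14 Ctrl and 4 of 506 cKO peaks overlapped (28.6% and 0.791%). Without Speer, Sp100-family and Sfi1 genes 28 Ctrl peaks remained. The ratio at starts was 0.428 on autosomes, 0.366 without close neighbours and 0.367 over genes with curated transcripts. The cause of these shifts was not tested. No paired analysis was possible because the deposited lists carry no values of single animals, and no replicate could be left out. Unknown depth limits every comparison between the lists.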
